A study of Mus musculus with 2 samples.

Results

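The 10 genes described here encode enzymes that turn cholesterol into conjugated bile acids. They were chosen by name, as every probe set that the platform annotation gives to Cyp7a1, Cyp8b1, Hsd3b7, Akr1d1, Cyp27a1, Cyp7b1, Cyp46a1, Cyp39a1, Slc27a5 or Baat, which makes 16 probe sets of 45101 and 10 of 18193 named genes. Liver RNA was compared between 2 groups of female wild-type C57BL/6 mice, all 8 weeks old. The AKI group had acute kidney injury from 30 min of warm ischemia of both kidneys followed by reperfusion, and the sham group had the operation alone. Livers were frozen 24 h later, 3 mice of a group gave 100 mg of liver to 1 pooled tube, and RNA of each pool went onto 1 Affymetrix mouse array. The study thus has 2 arrays with no replicate, the number of arrays limits the precision, variation between mice cannot be estimated, and no p-value is given. "Higher" and "lower" describe these pools only, and whether the groups overlap cannot be judged.

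Bile acids are the end products of cholesterol breakdown and the liver is the organ that holds all enzymes of their synthesis. In the classical pathway, Cyp7a1 adds the first hydroxyl group to the cholesterol ring, and this step sets the rate of synthesis. In the alternative pathway, the side chain is oxidised first, chiefly by the mitochondrial enzyme Cyp27a1, and the ring is hydroxylated afterwards by Cyp7b1. Both routes then share the ring-modifying enzymes Hsd3b7 and Akr1d1, the shortening of the side chain in peroxisomes, and the coupling to taurine or glycine through Slc27a5 and Baat. When bile acids accumulate, the nuclear receptor Nr1h4 (FXR) induces Nr0b2 (SHP), which represses Cyp7a1 and Cyp8b1.

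The pools differed most in the classical pathway. Both classical enzymes, Cyp7a1 and Cyp8b1, were more than 4-fold lower in the AKI pool, and the shared ring enzymes Hsd3b7 and Akr1d1 were lower by less. In the alternative pathway only Cyp7b1 passed 2-fold, whereas Cyp27a1, Cyp39a1 and Cyp46a1 lay between -0.31 and 0.14 on the log2 scale. Of the conjugating enzymes Baat was lower and Slc27a5 was not. Each difference is log2(signal + 71.8) in the AKI pool minus the same in the sham pool, where 71.8 is the 25th percentile of all signals. This scale understates the difference of a weak signal. Where a gene has several probe sets, these repeat its measurement on the arrays, and the SD of their differences within genes was 0.66 in the highest of 4 level classes, over 2317 genes, 0.68 in the class below it and 0.78 in the second lowest. This SD leaves out the variation between mice.

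Cyp7a1 had a signal of 433.2 in the AKI pool and 11475.1 in the sham pool on its brighter probe set, a difference of -4.52. Its other probe set read 190.0 in the AKI pool and 3716.7 in the sham pool, a difference of -3.85. Both probe sets were thus far lower in the AKI pool, with signals 26.5-fold and 19.6-fold higher in the sham pool. The table holds no detection calls, so 44 probe sets of olfactory receptor genes, which liver is not known to use, served to show the level of probe sets without a target. Their 95th percentile was 668.9 in the AKI pool and 538.7 in the sham pool. Cyp7a1 lay below that level on both probe sets in the AKI pool, and its exact fold is therefore uncertain. Against the olfactory level in place of its own AKI signal, the sham signal of the brighter probe set was 17.2-fold higher. Among 13128 genes with a signal at or above the median of the array in at least 1 pool, called measured below, the difference of Cyp7a1 was the 4th lowest.

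Cyp8b1, the hydroxylase that directs synthesis towards cholic acid, had a signal of 1399.6 in the AKI pool and 8961.4 in the sham pool. The difference was -2.62, the 106th lowest among measured genes, and both signals were above the olfactory level. Cyp8b1 has 1 probe set, which leaves no repeat for it. Its difference was smaller in size than that of Cyp7a1 by 1.90, or by 1.42 with all signals raised to the olfactory level of 668.9.

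The promoter of Cyp8b1 is shown for a match to the site of the nuclear receptor Nr5a2 (LRH-1), a known activator of this gene. The values of Nr5a2 are given with the regulators below, and a link between them and Cyp8b1 was not tested. The sequences are 250 bases upstream of the start site from RefSeq, assembly GRCm38.p6, on the strand of the gene, 5′ to 3′. They were given for 5 of the 10 enzymes. Capitals in the Cyp8b1 promoter mark a match to CAAGGNCA, the core of the LRH-1 site, from 60 to 53 bases upstream of the start.
Cyp8b1 (chr9:121916306-121916555, minus strand): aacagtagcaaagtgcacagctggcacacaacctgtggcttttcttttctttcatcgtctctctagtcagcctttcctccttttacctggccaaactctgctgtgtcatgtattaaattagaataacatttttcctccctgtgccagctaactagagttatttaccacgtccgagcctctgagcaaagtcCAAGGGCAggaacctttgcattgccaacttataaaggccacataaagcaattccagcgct
Both strands were searched, and 5.53% of 32851 promoter windows of this length hold this motif. A match is a description of the letters and does not show binding.

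Hsd3b7, the steroid dehydrogenase of the endoplasmic reticulum that acts after ring hydroxylation, had a signal of 5875.9 in the AKI pool and 20187.0 in the sham pool. This is a difference of -1.77 on its single probe set. Akr1d1, the cytosolic reductase that gives the ring its bent shape, read 1710.6 in the AKI pool and 3531.8 in the sham pool, a difference of -1.02. Its other probe set read 409.4 in the AKI pool and 800.2 in the sham pool, a difference of -0.86, with the AKI signal below the olfactory level. Both probe sets of Akr1d1 thus lay close to 2-fold, on either side of it. The differences of both genes were larger than the SD between probe sets of a gene, 0.66, which holds no variation between mice. In the same level class, 12.9% of genes had a difference as low as that of Akr1d1.

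In the alternative pathway, Cyp27a1 had a signal of 11137.9 in the AKI pool and 13857.1 in the sham pool, a difference of -0.31. This is smaller than the SD between probe sets. Cyp7b1, which hydroxylates the ring of oxysterols, read 1027.3 in the AKI pool and 4212.8 in the sham pool on its brighter probe set. The difference was -1.96, and the second probe set, with 560.1 in the AKI pool and 2773.9 in the sham pool, gave -2.17. The AKI signal of the second probe set was below the olfactory level, so whether Cyp7b1 passed 4-fold is uncertain. The difference of Cyp7a1 was larger in size than that of Cyp7b1 by 2.55, or by 2.06 with all signals raised to the olfactory level of 668.9, and that of Cyp7b1 was larger in size than that of Cyp27a1 by 1.65. Neither gap was tested, since 1 array per group allows no test.

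The remaining enzymes of oxysterol breakdown were near 0. Cyp39a1, a liver enzyme that hydroxylates the ring of the brain-derived oxysterol made by Cyp46a1, had a signal of 860.8 in the AKI pool and 792.4 in the sham pool, a difference of 0.11. Cyp46a1, known mainly from neurons, read 486.9 in the AKI pool and 435.7 in the sham pool, a difference of 0.14. Both signals of Cyp46a1 were below the olfactory level, so they give no difference that could be told from probe sets without a target. The sign of both differences turned with the scaling. Under centring on 12 reference genes they were -0.09 for Cyp39a1 and -0.06 for Cyp46a1.

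Conjugation joins a bile acid to taurine or glycine in a pair of steps. Slc27a5, which activates bile acids with coenzyme A and also carries fatty acids, had a signal of 31257.3 in the AKI pool and 26460.5 in the sham pool, a difference of 0.24. Baat, the peroxisomal transferase that completes the coupling, read 893.6 in the AKI pool and 3690.6 in the sham pool, a difference of -1.96. Its other probe set read 385.0 in the AKI pool and 865.4 in the sham pool, a difference of -1.04, so the probe sets of Baat differed from each other by 0.93. The weaker one lay below the olfactory level in the AKI pool, and the brighter one is of the kind that may match several transcripts. Both were lower in the AKI pool, and the difference of Baat was 2.20 below that of Slc27a5.

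**Figure D1:**
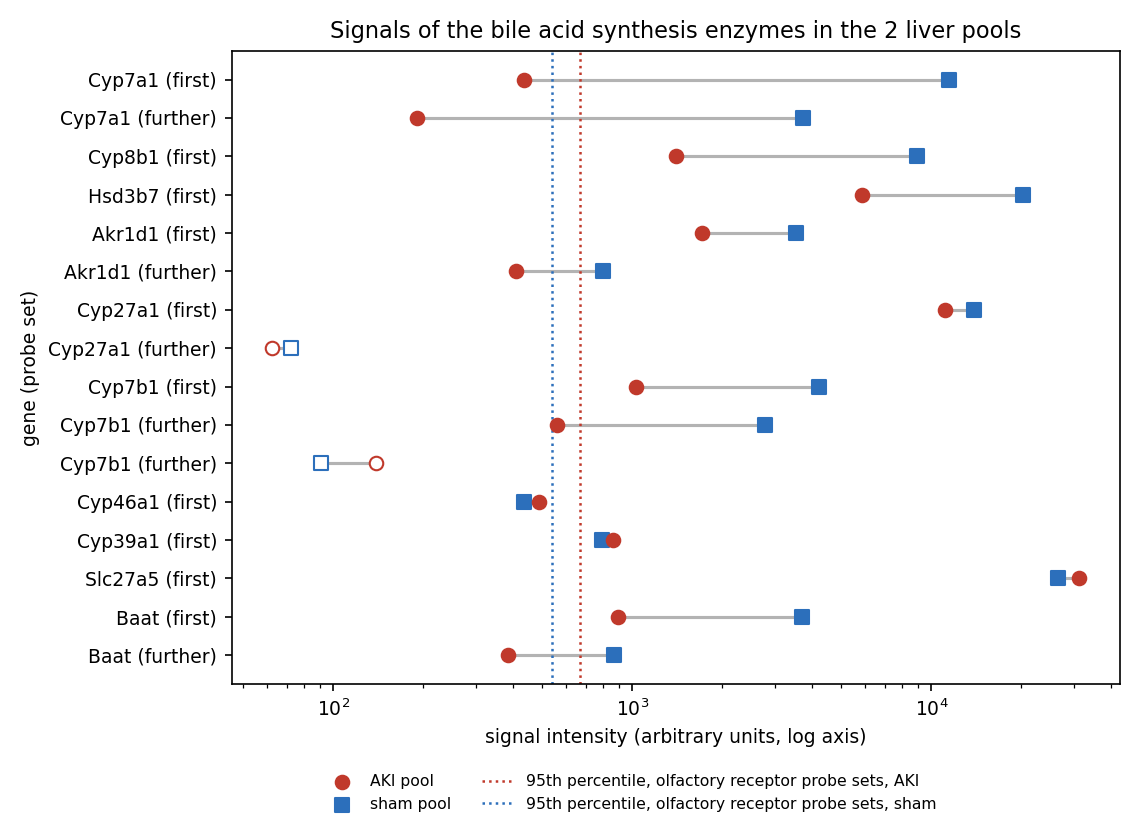
Signal intensity (log axis) of the 16 probe sets of the 10 enzymes, with the AKI pool as red circles and the sham pool as blue squares. The first probe set of a gene is its brightest, open symbols mark the 2 probe sets below the level filter, and dotted lines mark the 95th percentile of 44 olfactory receptor probe sets, 668.9 in the AKI pool and 538.7 in the sham pool. Both probe sets of Cyp7a1 cross these lines, while Cyp27a1 and Slc27a5 stay far above them in both pools.

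Promoters of Akr1d1 and Cyp27a1 are set side by side because both hold a match to TTATGNAA, a core of the D-box bound by Dbp and Nfil3. Dbp is a clock-controlled activator known in rat to act on the promoter of Cyp7a1, and Nfil3 is a repressor that binds the same sites. Capitals mark the match, which lies 8 to 1 bases upstream of the start in Akr1d1 and 60 to 53 bases upstream in Cyp27a1.
Akr1d1 (chr6:37529923-37530172, plus strand): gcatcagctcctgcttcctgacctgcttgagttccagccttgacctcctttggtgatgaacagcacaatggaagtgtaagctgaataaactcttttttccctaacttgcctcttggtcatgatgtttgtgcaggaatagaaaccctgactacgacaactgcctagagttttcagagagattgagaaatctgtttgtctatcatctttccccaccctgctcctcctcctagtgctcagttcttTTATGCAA
Cyp27a1 (chr1:74713285-74713534, plus strand): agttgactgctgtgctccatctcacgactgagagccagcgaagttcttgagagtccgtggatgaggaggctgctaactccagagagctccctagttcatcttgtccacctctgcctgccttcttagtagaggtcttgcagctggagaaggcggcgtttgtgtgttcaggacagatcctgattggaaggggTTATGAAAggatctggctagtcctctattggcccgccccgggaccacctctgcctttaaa
Of 32851 windows, 3.07% hold this motif on either strand. Akr1d1 was at -1.02 and Cyp27a1 at -0.31, where the SD between probe sets of a gene was 0.66 in their level class. The gap between these 2 genes was not tested. The promoters of Cyp8b1, Hsd3b7 and Cyp46a1 held no match in this window. None of the 5 promoters held the consensus inverted repeat of FXR (held by 0.00609% of windows), the consensus direct repeat bound by Hnf4a and Rxra (0.0335%), the E-box CACGTG (6.02%) or the AP-1 site TGANTCA (6.75%). The exact repeats are so rare that their absence from 5 windows does not show a lack of FXR, Hnf4a or Rxra sites. The NF-kB consensus was found once, in Hsd3b7, and is held by 17.6% of windows. The half-site AGGTCA was found in Akr1d1 only among the 5, and is held by 14% of windows.

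All 10 enzymes were measured on their brightest probe set. Of these, 6 were lower by at least 2-fold in the AKI pool and 0 were higher by as much, where 12.4% of the 13128 measured genes were at least 2-fold lower and 10.4% at least 2-fold higher. The 6 were Cyp7a1, Cyp8b1, Cyp7b1, Baat, Hsd3b7 and Akr1d1. At least 4-fold lower were 2, Cyp7a1 and Cyp8b1, against 2.37% of measured genes, and 0 were at least 4-fold higher, against 2.09%. Cyp7b1 and Baat lay just short of that limit, with signals 4.10-fold and 4.13-fold higher in the sham pool but differences of -1.96 after the pseudocount. The median difference was -1.39 over the 10 enzymes and -0.02 over all measured genes. It was -3.57 over the 2 classical enzymes, -1.39 over the 2 shared ring enzymes and -0.10 over the 4 alternative pathway enzymes, the last turning to 0.20 under hybridization control centring. The alternative pathway median joins unlike members, with Cyp7b1 at -1.96 and the others between -0.31 and 0.14. It includes Cyp46a1, whose signals were below the olfactory level. With the level filter at the 75th percentile, which Cyp46a1 did not pass, this median was -0.31. The level filter kept 14 of the 16 enzyme probe sets, and 9 of these were at least 2-fold lower, against 13.3% of named probe sets. In 5 of the 10 genes every such probe set was at least 2-fold lower, and in Akr1d1 only the brighter one was. Of the 10 genes, 6 had only 1 such probe set, and the filter left out a weak probe set of Cyp7b1 at 0.37. The share of all measured genes with every probe set at least 2-fold lower was not computed.

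Most of these enzymes are strongly expressed in liver, and 8 of the 10 were in the highest of the 4 level classes, where 13.1% of 3996 genes were at least 2-fold lower. In this class 0.05% of genes had a difference as low as that of Cyp7a1, 1.03% as low as that of Cyp8b1 and 4.08% as low as that of Hsd3b7. For Akr1d1 this share was 12.9%, and for Cyp27a1 it was 37.3%.

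**Figure D2:**
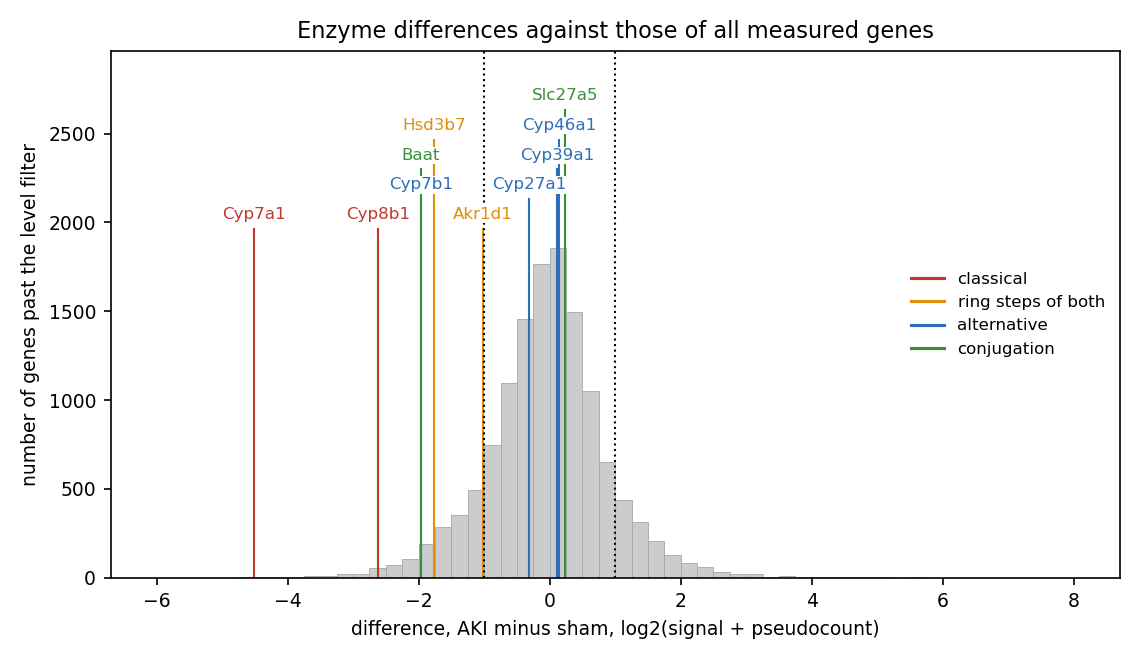
Distribution of the difference (AKI minus sham, log2 scale) over 13128 measured genes as grey bars, with coloured lines at the 10 enzymes by pathway and dotted lines at 2-fold. Cyp7a1 at -4.52 lies in the far left tail, and Cyp27a1, Cyp39a1, Cyp46a1 and Slc27a5 lie between -0.31 and 0.24, in the bulk of the genes.

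Other enzymes of the pathway were lower in part, where 12.4% of measured genes were at least 2-fold lower and 10.4% at least 2-fold higher. Of 15 measured enzymes that shorten the side chain, modify the ring or hydroxylate bile acids further, 7 were at least 2-fold lower and 0 at least 2-fold higher, with a median of -0.93, and 2 lay above 0. The lowest was Akr1c14, a hydroxysteroid dehydrogenase, with signals of 113.1 in the AKI pool and 3693.4 in the sham pool (-4.35), the first of these below the olfactory level. Hsd17b6 (-1.77), the thioesterase Acot8 (-1.72, with an AKI signal of 251.6, also below that level) and the dehydrogenase Akr1c6 (-1.63) came next. Another probe set of Hsd17b6 was at -0.39. Of the genes known for the entry and shortening of the side chain in peroxisomes, singled out after their values were seen, Acox2 (-1.52), Hsd17b4 (-1.39) and Amacr (-1.24) were at least 2-fold lower. Acaa1b (-0.93), Scp2 (-0.80), Slc27a2 (-0.61) and Abcd3 (-0.20) did not reach 2-fold. Cyp2c70, the mouse enzyme that makes muricholic acids, and Ch25h, a hydroxylase of the cholesterol side chain, were singled out likewise. Ch25h was at 0.57, with a sham signal of 447.3 below the olfactory level, and Cyp2c70 was at 0.03 with signals of 27301.7 in the AKI pool and 26766.5 in the sham pool. Of 3 measured electron donors of the P450 enzymes none differed by 2-fold. Fdx1, the ferredoxin that serves Cyp27a1 in mitochondria, was at -0.61, Cyb5r3 at -0.36 and Cyb5a at 0.29.

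The regulators of the pathway included the genes of its feedback loop. Of 19 measured regulators, 9 were at least 2-fold lower and 1 at least 2-fold higher, with a median of -0.99. Among all measured genes, 12.4% were lower and 10.4% higher by as much. Nr0b2, the repressor of Cyp7a1 and Cyp8b1, had a signal of 83.0 in the AKI pool and 1746.5 in the sham pool (-3.55), the first of these below the olfactory level, so the repressor and its target genes were all lower in the same pool. Dbp had a signal of 557.7 in the AKI pool and 6335.3 in the sham pool (-3.35), and a further probe set gave -3.49. Its AKI signal was below the olfactory level, as was the sham signal of Nfil3 given next. Nfil3 was the 1 gene at least 2-fold higher on its brightest probe set, with 2687.3 in the AKI pool and 323.2 in the sham pool (2.80). Further probe sets disagreed with the brightest in both directions. Mafg (-0.02) had another at 1.26, and Rxra (-1.31) had another at 0.01. Prox1 (0.09) had another at -1.15, and the lowest of Fgfr4 (-0.93) was at -1.53. Nr1i3 (CAR), a receptor for foreign compounds, was at -2.61. Singled out after their values were seen, Nr1h4 was at -2.31, Klb, the co-receptor for the intestinal hormone that represses Cyp7a1, at -1.97, and Nr5a2 at -1.34, with the probe sets of Nr5a2 between -2.43 and -1.34. The AKI signals of Nr1h4 (342.2) and Klb (393.6) were below the olfactory level, so the sizes of these differences are uncertain. Hnf4a, an activator of Cyp7a1 singled out likewise, was at -0.83, with probe sets between -0.98 and -0.46.

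Transport genes were mostly lower. Of 13 measured transporters of bile acids and sterols, 9 were at least 2-fold lower and 1 at least 2-fold higher, with a median of -1.26. The shares of all measured genes were 12.4% and 10.4%. Abcb11, which pumps bile salts into bile, had a signal of 2270.2 in the AKI pool and 14515.0 in the sham pool (-2.64). The uptake carriers Slco1b2 (-2.61) and Slco1a1 (-1.59) and the sterol pump Abcg5 (-1.91) were lower as well. One of the 5 probe sets of Slco1b2 was at 0.48. Abcc4, a pump at the blood side of the cell, was the 1 at least 2-fold higher (1.07), with weak signals of 294.1 in the AKI pool and 102.0 in the sham pool.

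Enzymes upstream of the pathway and unrelated liver P450s were set beside the 10 enzymes. Of 17 measured cholesterol synthesis genes, 10 were at least 2-fold lower and 0 higher, with a median of -1.48. They ranged from -5.12 to 0.43, and 5 were at least 4-fold lower, against 2.37% of measured genes. Of 18 other liver P450 genes, 2 were at least 2-fold lower and 1 higher, with a median of -0.32. Over all measured genes, 12.4% were at least 2-fold lower, which is near the count in the P450 list, and 10.4% at least 2-fold higher. Cyp2b10 (1.81) was higher, Cyp4a14 (-1.29) and Cyp2j5 (-1.02) were lower, and Cyp3a25 was at -0.99. Another probe set of Cyp2j5 was at -2.07. On brightest probe sets, Cyp7a1, Cyp8b1 and Cyp7b1 were each lower than all of these 18 P450s, but the other probe set of Cyp2j5 was lower than that of Cyp7b1 (-1.96), whereas Cyp27a1, Cyp39a1 and Cyp46a1 lay inside their range of -1.29 to 1.81. The lists were chosen with earlier results in view, and the gap between them was not tested.

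**Figure D3:**
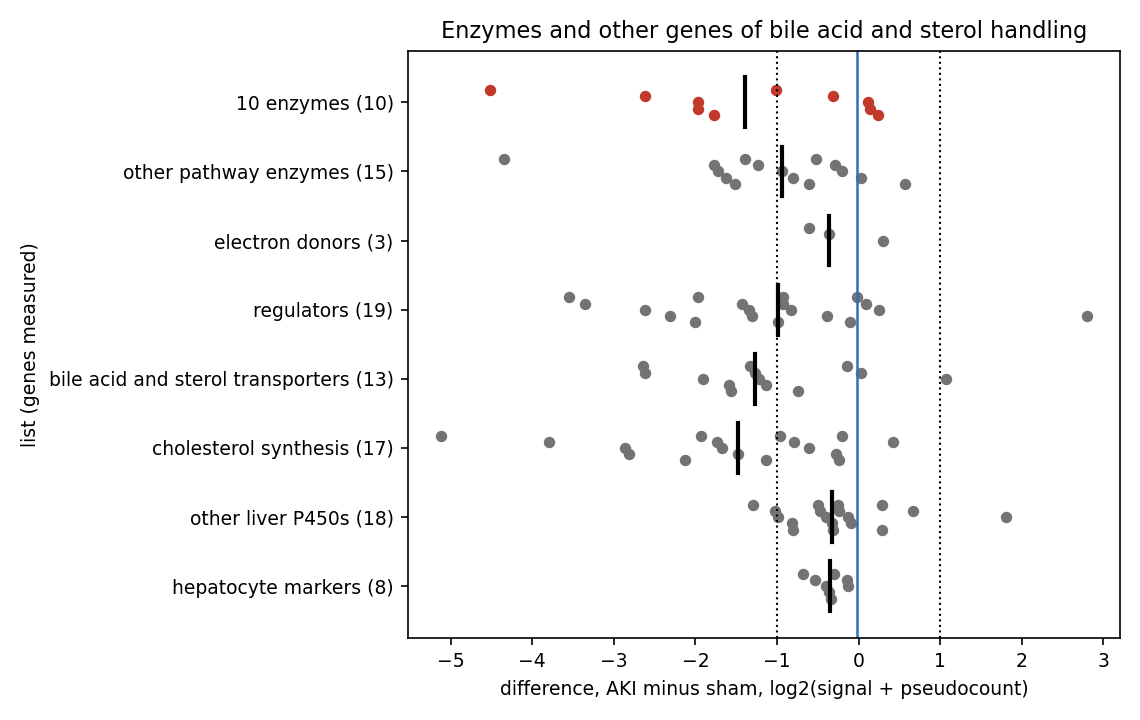
Difference (AKI minus sham, log2 scale) of each measured gene as a point, for the 10 enzymes in red and 7 other lists in grey, with black bars at list medians, a blue line at the median of all measured genes and dotted lines at 2-fold. The enzymes spread from -4.52 to 0.24 with a median of -1.39. Medians of the other lists were -1.48 for cholesterol synthesis, -1.26 for transporters, -0.99 for regulators and -0.93 for other pathway enzymes. They were -0.36 for electron donors, -0.35 for hepatocyte markers and -0.32 for other liver P450s.

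Several measures of the samples moved with the groups. Markers of hepatocytes were strong, with signals from 6920.4 to 98303.4 in the AKI pool and from 8917.0 to 124515.9 in the sham pool, as liver has. All 8 measured of 10 listed were lower in the AKI pool, between -0.68 and -0.12. Their summed signal in the AKI pool was 0.779 of that in the sham pool, where the signal of Cyp7a1 was 0.0378 and that of Cyp8b1 0.156 of the sham value. In bulk tissue, fewer cells of a type and less RNA per cell cannot be told apart. Neutrophil markers summed to 5321.0 in the AKI pool and 1785.3 in the sham pool over 6 named of 8 listed, of which 5 passed the level filter, with signals from 113.1 to 2023.4 in the AKI pool and from 161.4 to 640.1 in the sham pool. S100a8 (3.17) and S100a9 (2.72) were higher and made up most of the AKI sum. S100a8 read 2023.4 in the AKI pool and 161.4 in the sham pool, and S100a9 read 1666.6 and 191.2 in the same order. Of the other markers, Elane was at 0.76, Csf3r at 0.14, Mpo at -0.03 and Cxcr2, below the level filter, at -0.34. Ly6g was not analysed here. Cholangiocyte markers summed to 2871.9 in the AKI pool and 1172.3 in the sham pool over 5 named of 6 listed, of which Epcam (0.40) and Sox9 (2.58) passed the level filter and Krt7, Krt19 and Cldn7 did not. Sox9 made up 1729.9 of the AKI sum and 229.2 of the sham sum. Kupffer cell, endothelial, stellate and lymphocyte marker sums in the AKI pool were 0.637, 0.708, 1.42 and 1.37 of those in the sham pool, and erythroid markers summed to 1599.8 in the AKI pool and 1456.5 in the sham pool. These lists went both ways, except the 2 measured erythroid markers, which were both above 0. The stellate sum was mostly Dcn, with 14722.2 in the AKI pool and 7724.9 in the sham pool, and 6 of the 7 measured stellate markers were below 0, with a median of -0.13. Medians were -0.54 over 8 Kupffer cell markers, -0.57 over 8 endothelial markers and 0.22 over 5 lymphocyte markers. The ratio of 3′ to 5′ control probe sets, a sign of RNA quality, was 2.24 in the AKI pool and 1.61 in the sham pool for actin, 1.05 in the AKI pool and 0.86 in the sham pool for Gapdh, and 3.50 in the AKI pool and 3.66 in the sham pool for pyruvate carboxylase. The part of these measures in the differences of the enzymes was not tested.

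The scaling of the arrays moved all genes together. The median difference of all measured genes was 0.28 after centring on 18 hybridization controls, bacterial and phage transcripts added to the sample, and -0.22 after reference gene centring. The counts at 2-fold were 2211 higher and 1066 lower with the first (67.5% higher) and 1002 and 2216 with the second (31.1%), against 1370 and 1634 (45.6%) with the authors' scaling. Under hybridization controls the differences were -4.22 for Cyp7a1, -2.32 for Cyp8b1, -0.72 for Akr1d1, -0.02 for Cyp27a1 and 0.54 for Slc27a5. Under reference genes they were -4.71, -2.82, -1.22, -0.51 and 0.04 in the same order.

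**Figure D4:**
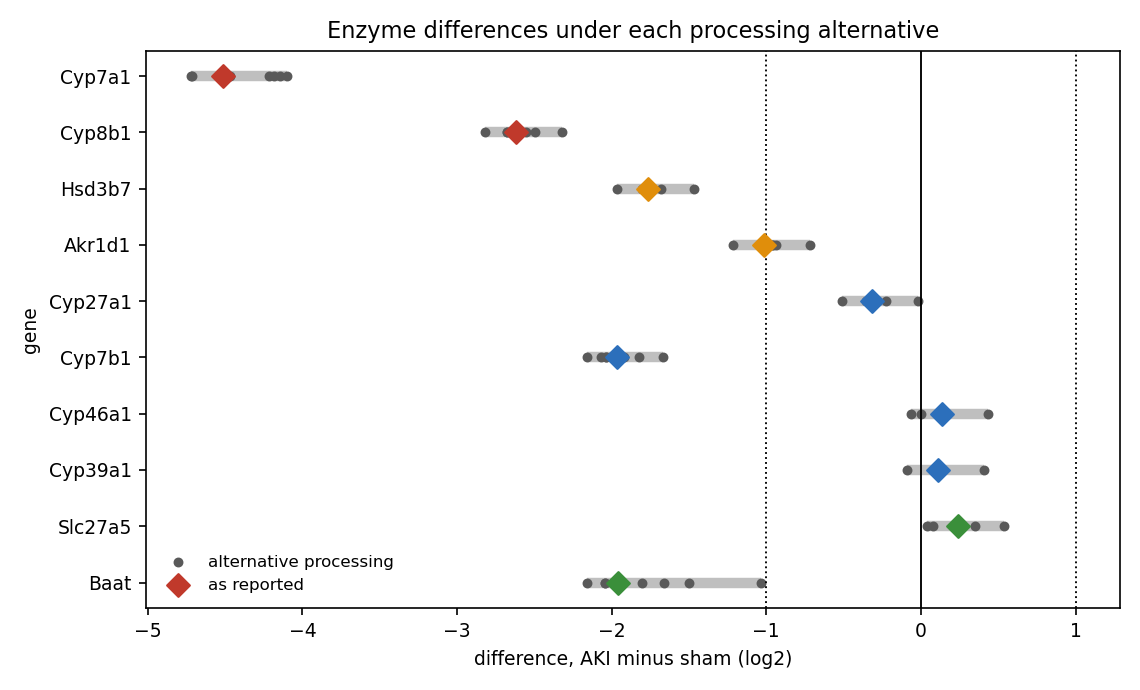
Difference of each of the 10 enzymes (AKI minus sham, log2 scale) as reported, shown as diamonds coloured by pathway as in the distribution plot, and under up to 12 processing alternatives as dots with their range in grey. Cyp7a1 stays between -4.72 and -4.10 and Cyp8b1 between -2.82 and -2.32, Akr1d1 straddles the 2-fold line, and Cyp46a1 and Cyp39a1 straddle 0.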

How the data were processed

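The authors deposited 1 signal intensity per probe set and array, on a linear scale. The software and genome build behind them are not given in the sources used here. Without the lowest and highest 2% of probe sets, both arrays averaged 500.0, so the authors had scaled them to a common target, which hides any difference in the total amount of mRNA. The table has 45101 probe sets, of which 64 are controls, 34945 have 1 gene symbol, 932 several and 9160 none. All 10 members kept their symbol in RefSeq (GRCm38.p6).

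Signals were taken as log2(signal + 71.8), AKI minus sham. A gene is represented by its brightest probe set and counted as measured when that probe set reached the array median in at least 1 pool (231.8 AKI, 225.7 sham). Level classes are 4 equal groups of the named probe sets past this filter. Genes named are all members and, from each pathway list except cholesterol synthesis, up to 4 genes with the largest differences in size. No cholesterol synthesis gene is named. Further pathway genes complete a count, have probe sets that disagree, stayed below the level filter, or were singled out after their values were seen. Members, lists and rules were chosen with earlier results of these data known. Some listed genes were not analysed here. Alternatives changed the scaling (median, quantile, lowess, hybridization controls, reference genes), the level filter, the pseudocount, the choice of probe set, or set a floor. The computation was tested on simulated data. Computation used statsmodels 0.14.6 and scipy 1.17.1 with numpy 2.4.6, pandas 2.3.3, matplotlib 3.10.9 and Python 3.11.15.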

Additional observations from a re-analysis of the deposited data

How the results depend on the processing

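With 1 array per group, no alternative gives a test. Across 12 alternatives, of which 1, a floor at the olfactory receptor level of 668.9, was chosen after seeing the data, the count of enzymes at least 2-fold lower was 6 in 6 and 5 in 6, and the count at least 2-fold higher was 0 in all 12. The count at least 2-fold lower moved with Akr1d1, which was short of 2-fold under 5 alternatives, and with Hsd3b7. Of all measured genes, 8.12% were at least 2-fold lower with hybridization control centring and 16.9% with reference gene centring. This share was 14.8% with a pseudocount of 1, 8.09% with the table median as pseudocount and 5.41% with the floor. In the other alternatives it was 10.3% to 13.8%, against 12.4% as reported. Measured genes at least 2-fold higher numbered from 622 with the floor to 2211 with hybridization control centring. Once probe sets of the kinds shared between transcripts were left out, Hsd3b7 could not be measured and Baat was at -1.04. The count at least 4-fold lower was 4 with reference gene centring, with a pseudocount of 1 and with the floor, against 2 as reported, and 3 with the mean of probe sets. The share of all measured genes at this limit, 2.37% as reported, was not computed for the alternatives. The median over the enzymes (-1.39 as reported) was -1.09 with hybridization control centring, -1.77 at the 75th percentile level filter, which Cyp46a1 did not pass, and -1.02 once probe sets of the kinds shared between transcripts were left out. Leaving out 1 enzyme gave -1.77 or -1.02, so this median rests on the gap between Hsd3b7 and Akr1d1. Under hybridization control centring, the list medians were -0.64 for the other pathway enzymes, -0.69 for regulators, -0.97 for transporters, -1.18 for cholesterol synthesis and -0.023 for other P450s. Under reference gene centring they were -1.13, -1.19, -1.46, -1.68 and -0.52 in the same order. The regulators were at -1.32 with the stricter level filter, and cholesterol synthesis was at -1.67 with the mean of probe sets and -1.01 with the floor. The other 137 list and count values moved by less than the SD between probe sets over the root of the list size, or by at most 1.5 times for counts. No paired analysis was possible because each group has 1 array. The limits are the lack of replicate arrays, and weak signals, since Cyp7a1 in the AKI pool and Cyp46a1 in both pools lay below the level that olfactory receptor probe sets reach.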

Other observations

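The probe sets of the enzymes that did not pass the level filter were weak in both pools. The weakest probe set of Cyp7b1 read 138.7 in the AKI pool and 91.0 in the sham pool (0.37), against -1.96 and -2.17 on its brighter probe sets. A second probe set of Cyp27a1 read 62.4 in the AKI pool and 72.1 in the sham pool (-0.10). The subunits of the bile acid exporter at the blood side of the cell, Slc51a and Slc51b, also stayed below the filter. Slc51b read 169.8 in the AKI pool and 9.2 in the sham pool, and Slc51a read 163.3 in the AKI pool and 215.4 in the sham pool.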
